A study of Mus musculus with 16 samples.

Results

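The 8 cholesterol synthesis genes described here were *Hmgcs1*, *Sqle*, *Idi1*, *Fdps*, *Fdft1*, *Lss*, *Cyp51* and *Dhcr7*, chosen by name as enzymes of the pathway. These genes, and the gene lists set beside them, were chosen with earlier results of these data known. All 8 were found, among 22396 gene symbols, in EpCAM+ (epithelial) cells sorted from the distal colon of 16 mice, each sequenced as its own library. EpCAM is a surface protein of epithelial cells. The 4 groups were as follows: 4 control mice (Tnfr2-f/f) and 5 knockout mice (*Vil1*::Cre;Tnfr2-f/f) on water, and 3 control and 4 knockout mice given dextran sulfate sodium (DSS), which injures the colonic lining. Every mouse carried the floxed allele of *Tnfrsf1b*, the gene of TNFR2, and Cre was driven by the villin promoter, so that the deletion was directed to intestinal epithelial cells. The labels give 3% DSS for 6 days and dissection at day 12 for all mice, whereas the study's methods name a higher dose and call the uninjured mice day 0. The mice were adults, and the labels state no age. The methods separate injured colon from unaffected colon after DSS, so that the DSS libraries come from injured regions.

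The 9 water-treated mice came from 2 cages, 1 of 4 males and 1 of 5 females, and the 7 DSS-treated mice were females of another 2 cages. Each of these cages held both genotypes. No cage held both treatments, and the 2 treatments were quantified in separate tables, so that DSS, cage and table cannot be told apart. Levels are given in TPM, transcripts counted as a share of the library and corrected for transcript length, and genotypes were tested on log2(TPM + 1) within a treatment. Across treatments, TPM was rescaled once by median-of-ratios factors over 9936 genes, and only levels are given. Nothing in the labels ties a replicate number to a litter, and p-values measure the spread between mice.

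The targeted gene and the cell type markers were checked first. *Tnfrsf1b* was at 13.5, 15.4, 11.1 and 15.5 TPM in control mice on water and at 11.4, 10.1, 9.23, 14.8 and 13.3 TPM in the knockout mice. After DSS it was at 22.2, 13.9 and 13.3 TPM in controls and 27.0, 13.5, 15.2 and 17.7 TPM in knockouts, so that the targeted gene overlapped between genotypes in both treatments. Its log2 difference was -0.23 (SE 0.16, limma adjusted p = 0.865) on water and 0.14 (SE 0.27, limma adjusted p = 0.99968) after DSS. The study's methods give loxP sites around exon 2. TPM is given for whole transcripts and not for that exon, so that these levels are no check of the deletion, which the study examined by other assays that are not analysed here. The mice are called knockout-labelled. The 10 epithelial markers summed to 5212 to 7354 TPM on water and 5035 to 8013 TPM after DSS, and none was under 1 TPM throughout. The 13 leukocyte markers summed to 749 to 1489 TPM on water and 17.9 to 46.9 TPM after DSS. The 6 plasma cell markers summed to 2575 to 147687 TPM on water and 68.5 to 3968 TPM after DSS. The 9 stromal and endothelial markers found summed to 224 to 773 TPM on water and 115 to 517 TPM after DSS. *Cd8a* was under 1 TPM in every mouse, and *Cd3e*, *Ms4a1* and *Nkg7* in every DSS-treated mouse. Knockout-labelled replicate 3 on water, a female of the same cage as 2 other knockout-labelled mice, stood apart in the cholesterol genes themselves, and values without it are given beside the results that it moves most.

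Animal cells make cholesterol from acetyl-CoA through mevalonate, which is built into isoprenoid units, then into squalene, and is finally closed into the sterol ring and trimmed. The genes of this pathway are switched on together by SREBP2, a membrane-bound transcription factor that is released when sterols are scarce and held back by INSIG proteins when sterols are plentiful. In the gut, cholesterol also arrives from the lumen and from lipoproteins, and dividing epithelial cells need it for new membranes.

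Along the pathway, *Hmgcs1* (ENSMUSG00000093930; chr13:119690379-119708260, plus strand, GRCm38) encodes the cytosolic HMG-CoA synthase, an enzyme of the early, mevalonate-forming steps. *Idi1* (ENSMUSG00000058258; chr13:8885501-8892451, plus strand) interconverts the basic isoprenoid units. *Fdps* (ENSMUSG00000059743; chr3:89093588-89101959, minus strand) joins them to farnesyl diphosphate, the branch point to protein prenylation, ubiquinone and dolichol. *Fdft1* (ENSMUSG00000021273; chr14:63145150-63179578, minus strand) makes squalene and commits the flow to sterols. *Sqle* (ENSMUSG00000022351; chr15:59315077-59331192, plus strand) oxidises squalene, and *Lss* (ENSMUSG00000033105; chr10:76531588-76557138, plus strand) closes it to lanosterol. *Cyp51* (ENSMUSG00000001467; chr5:4081145-4104746, minus strand) removes a methyl group of lanosterol, and *Dhcr7* (ENSMUSG00000058454; chr7:143823145-143848410, plus strand) reduces the last double bond on the way to cholesterol. All 8 are protein coding and lie on 7 chromosomes.

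RefSeq promoter windows on GRCm38.p6 were at hand for 5 of the 8 genes, *Hmgcs1*, *Idi1*, *Lss*, *Cyp51* and *Dhcr7*; *Sqle*, *Fdps* and *Fdft1* had no entry. The 250 bases before each start were searched on both strands for TCACNCCAC, a sterol regulatory element of the kind SREBP binds, for CACCCCAC, which overlaps it, and for CCAAT, the site of NF-Y. The element was present in 1 of the 5 genes, *Hmgcs1*, and in 1.05% of all 32851 promoters. CACCCCAC was likewise present in *Hmgcs1* alone, at the same place, and in 2.58% of promoters. CCAAT was present in all 5 genes and in 33.8% of promoters. The sterol element and the CCAAT match nearest upstream of it in *Hmgcs1*, and each CCAAT match of the other 4 genes, follow with the gene's strand read from left to right and the motif letters in capitals; ATTGG is CCAAT on the other strand. The *Hmgcs1* window carries the sterol element with CCAAT upstream of it (2 more CCAAT matches, 237 and 45 bases before the start, lie outside it), and the other windows show the CCAAT matches that these genes share.
Hmgcs1, chr13:119690174-119690262: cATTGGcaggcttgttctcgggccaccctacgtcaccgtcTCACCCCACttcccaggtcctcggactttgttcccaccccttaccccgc
Idi1, chr13:8885551-8885575: cctccagctgATTGGcgagcccggg
Idi1, chr13:8885582-8885605: ccaaggtgccATTGGctggcgacc
Lss, chr10:76531533-76531557: tgatgctctgATTGGccgagctcgc
Cyp51, chr5:4104712-4104736: ctgtccgccaCCAATctggtcctga
Dhcr7, chr7:143830119-143830143: actgccttcaCCAATcacaggacgc
Dhcr7, chr7:143830155-143830179: tccacttccgATTGGtcgtctgtga
The *Dhcr7* matches lie before the most downstream of its 3 listed starts, and the *Idi1*, *Cyp51* and *Dhcr7* windows lie within the bounds of the genes as GENCODE M21 draws them. Of the 12 other sterol synthesis enzymes, 11 had a promoter entry, 0 held TCACNCCAC and 10 held CCAAT. These matches describe letters in a window and not binding.

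In control mice the genes were higher after DSS than on water, by 0.10 (*Dhcr7*) to 1.28 (*Idi1*) on the log2(rescaled TPM + 1) scale, with a median over the 8 genes of 0.70 where that of all genes was 0.01. In 7 of the 8 genes every DSS-treated control lay above every water-treated control, where 10.6% of all 11241 genes did so and 14.2% lay the other way. In knockout-labelled mice the median difference was 0.37 and 1 gene, *Idi1*, had no overlap, where 17.4% of all 11138 genes lay higher after DSS in this way and 18.1% lower. Between genotypes 0 of the 8 genes were called in either treatment, where 0.00918% of all genes tested were called after DSS and 0.00905% on water. Summed over the 8 genes, the level was 257 to 311 TPM in controls on water and 575 to 670 TPM in controls after DSS. The rescaled sums of these controls were 281 to 340 on water and 464 to 591 after DSS. The level was 528 to 693 TPM in knockout-labelled mice after DSS, and 442 to 583 when rescaled. On water, 4 of the knockout-labelled mice lay between 287 and 329 TPM, and replicate 3 stood at 536 TPM. Rescaled, replicate 3 stood at 570, within the range of the DSS-treated mice of its genotype.

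**Figure D1:**
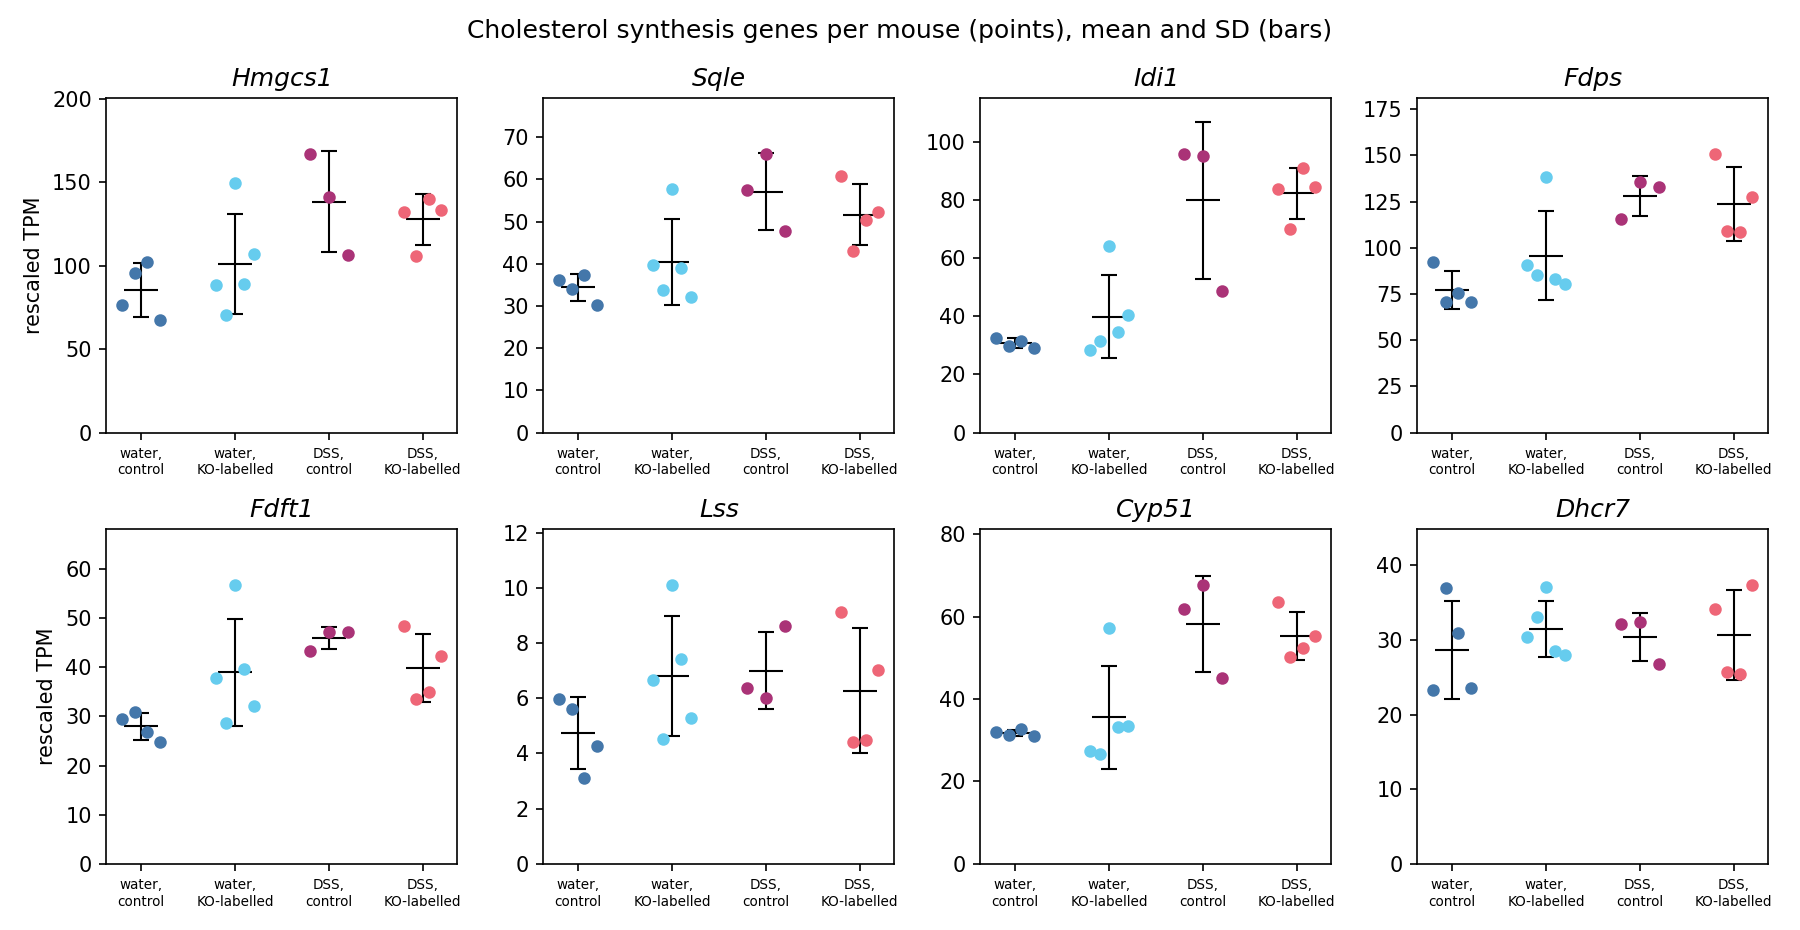
Rescaled TPM of the 8 genes, 1 panel a gene, in each mouse (points) of the 4 groups, with the group mean and SD (black bars); axes start at 0. The DSS-treated controls lie above the water-treated controls in every panel but *Dhcr7*, and 1 knockout-labelled mouse on water, replicate 3, lies above the other 4 of its group in all 8 panels.

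*Hmgcs1* was the most abundant of the 8 by mean in every group. On water it was at 71.4, 87.4, 93.5 and 61.5 TPM in the 4 controls and at 82.6, 64.4, 140.2, 80.3 and 98.1 TPM in the 5 knockout-labelled mice. After DSS *Hmgcs1* was at 193, 159.9 and 132 TPM in the 3 controls and at 157, 126, 166 and 156 TPM in the 4 knockout-labelled mice. In TPM as deposited, the highest water-treated mouse, knockout-labelled replicate 3, exceeded 2 of the 7 DSS-treated mice. On the rescaled values this mouse, at 149, lay above every DSS-treated mouse but control replicate 1, at 167. After rescaling, controls ranged from 67.3 to 102 on water and from 107 to 167 after DSS, a ratio of means of 1.62 with no overlap. The ratio was 1.27 in knockout-labelled mice, where the ranges, 70.6 to 149 and 106 to 140.2, overlapped. In TPM as deposited, both of its listed transcripts were higher after DSS, the main one at a mean of 73.0 TPM on water and 127 TPM after DSS, the other at 13.6 and 28.3 TPM.

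*Idi1* showed the largest difference of the 8. It was at 30.5, 27.3, 28.9 and 26.6 TPM in controls on water and at 26.6, 28.8, 60.5, 31.5 and 37.0 TPM in knockout-labelled mice on water. In DSS-treated mice it was at 111, 108 and 60.6 TPM in controls and at 99.9, 83.8, 107 and 99.3 TPM in knockout-labelled mice. The water-treated controls lay close together, and control replicate 3 after DSS lay below the other 6 DSS-treated mice. The rescaled ratio of means was 2.59 in controls (29.1 to 32.7 against 48.9 to 96.0) and 2.07 in knockout-labelled mice (28.4 to 64.4 against 70.2 to 91.0), and neither pair of ranges overlapped. Within a mouse, *Idi1* stood at percentile 83.2 among expressed genes (mean 1 TPM or more) in controls on water and at percentile 95.2 after DSS, as medians over mice. In knockout-labelled mice the medians were 84.0 on water and 94.6 after DSS. Of the 31-base windows of its transcript, 77.6% are absent from all other genes, and the rest occur in 623 of them.

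*Fdps* was at 86.0, 64.6, 68.8 and 64.7 TPM in controls and 84.7, 78.0, 129.8, 75.4 and 73.6 TPM in knockout-labelled mice on water. After DSS it was at 133, 153 and 165 TPM in controls and 179, 130.0, 128 and 149 TPM in knockout-labelled mice. The rescaled ratio of means was 1.66 in controls, with every DSS-treated mouse above every water-treated mouse, and 1.30 in knockout-labelled mice, with overlap through replicate 3 on water. *Fdps* values are uncertain. Of the 31-base windows of its 2 listed transcripts, 14.3% and 10.3% are absent from all other genes, and the rest occur in 8 predicted genes such as *Gm7979*, of which 1 is listed in the deposited tables. How reads from shared windows were assigned was not tested.

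*Fdft1* was at 27.5, 28.3, 24.4 and 22.6 TPM in controls and 35.4, 26.1, 53.3, 35.9 and 29.4 TPM in knockout-labelled mice on water. Following DSS, it was at 49.9, 53.4 and 58.5 TPM in controls and 57.5, 40.1, 41.2 and 49.7 TPM in knockout-labelled mice. All 3 DSS-treated controls lay above the water-treated controls after rescaling (43.3 to 47.2 against 24.7 to 30.9). In knockout-labelled mice the rescaled ranges, 28.6 to 56.7 on water and 33.6 to 48.3 after DSS, overlapped almost entirely, with a ratio of means of 1.02 against 1.64 in controls. *Gm6781* shares part of its sequence, and 78.7% and 83.5% of the windows of its 2 transcripts occur in no other gene.

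*Sqle*, which oxidises squalene, was at 33.7, 31.1, 34.1 and 27.5 TPM in controls and 37.2, 30.9, 54.2, 35.2 and 29.4 TPM in knockout-labelled mice on water. In DSS-treated mice it was at 66.2, 74.9 and 59.2 TPM in controls and 72.3, 51.5, 59.5 and 61.2 TPM in knockout-labelled mice. The controls did not overlap, with a rescaled ratio of means of 1.66, and knockout-labelled replicate 3 on water overlapped the DSS-treated mice of its genotype, where the ratio was 1.28. All windows of its transcript are absent from other genes. Of the same windows, 0% are absent from *Sqle* transcripts outside the deposited set, and for *Lss* the share is likewise 0%. The shares are 15.8% and 23.6% for the transcripts of *Fdps* and 27.0% to 33.9% for those of *Dhcr7*. For *Hmgcs1*, *Idi1*, *Fdft1* and *Cyp51* they are 71.3% to 82.9%. Levels here count the listed transcripts only, and how reads were shared within a gene was not tested.

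*Lss*, by its 1 listed transcript, was the least abundant of the 8 in every group. It was at 5.56, 5.13, 2.83 and 3.89 TPM in controls and 6.23, 4.14, 9.49, 6.73 and 4.85 TPM in knockout-labelled mice on water. After DSS it was at 7.36, 6.83 and 10.7 TPM in controls and 10.9, 5.28, 5.29 and 8.25 TPM in knockout-labelled mice. The rescaled control ranges lay next to each other without overlap (3.10 to 5.97 and 6.02 to 8.61), and the knockout-labelled ranges overlapped, with a difference of -0.11 on the log2 scale. Its low level rests on few reads. The geometric mean of its estimated counts was 67.1 on water and 201 after DSS, where the main *Hmgcs1* transcript had 620 and 2289. Counts also carry the depth of the libraries and are no measure of a difference between treatments. The same *Hmgcs1* transcript was at 73.0 TPM on water and 127 TPM after DSS.

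*Cyp51* was at 29.9, 28.7, 29.8 and 28.4 TPM in controls and 25.6, 24.4, 53.7, 30.1 and 30.7 TPM in knockout-labelled mice on water. Following DSS, it was at 71.2, 76.8 and 56.1 TPM in controls and 75.6, 60.0, 61.7 and 65.0 TPM in knockout-labelled mice. The 4 water-treated controls differed by less than 2 TPM, and all 7 DSS-treated mice lay above every water-treated mouse in TPM. After rescaling, knockout-labelled replicate 3 on water lay among the DSS-treated mice. The rescaled ratio of means was 1.83 in controls and 1.56 in knockout-labelled mice.

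*Dhcr7* differed least. It was at 21.7, 33.9, 28.3 and 21.5 TPM in controls and 28.4, 30.3, 34.9, 25.8 and 25.6 TPM in knockout-labelled mice on water. In DSS-treated mice it was at 37.0, 36.7 and 33.2 TPM in controls and 40.6, 30.6, 30.0 and 43.8 TPM in knockout-labelled mice. The ranges of water-treated and DSS-treated mice overlapped in both genotypes, and the rescaled ratio of means was 1.06 in controls and 0.975 in knockout-labelled mice.

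By mean TPM of the listed transcripts the order in controls on water was *Hmgcs1*, *Fdps*, *Sqle*, *Cyp51*, *Idi1*, *Dhcr7*, *Fdft1* and *Lss*. *Hmgcs1* overlapped *Fdps*, the 5 genes from *Sqle* to *Fdft1* each overlapped their neighbour, and *Lss* lay below all others. After DSS the order in controls was *Hmgcs1*, *Fdps*, *Idi1*, *Cyp51*, *Sqle*, *Fdft1*, *Dhcr7* and *Lss*. *Idi1* thus stood at place 5 on water and at place 3 after DSS. There it overlapped *Cyp51* in controls and did not in knockout-labelled mice.

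The comparison of DSS with water depended on scale and on 1 mouse. With TPM as deposited, the median of all genes was itself 0.32 higher after DSS in controls and 0.31 higher in knockout-labelled mice, and the 8 genes had medians of 1.05 and 0.73. Relative to the median of all genes, the 8 genes stood 0.69 higher in controls on the rescaled values and 0.73 higher on the deposited values. In knockout-labelled mice these values were 0.38 and 0.42. The count in controls was 7 of 8 under both of these scalings, where 10.6% of all genes lay higher without overlap on the rescaled values and 30.9% on the deposited values. It was 7 of 8 without any single mouse, where 11.9% to 24.8% of all genes did so. In knockout-labelled mice the count was 1 of 8, and 4 of 8 (*Idi1*, *Cyp51*, *Sqle* and *Fdps*) without replicate 3 on water, with a median of 0.51, where 19.1% of all genes lay higher. In the same genotype *Lss* and *Dhcr7* changed sign between scalings, and *Fdft1* was at 0.05 with all mice and at -0.078 with females alone. Among all genes without overlap in controls, 42.7% were higher after DSS on the rescaled values and 78.9% on the deposited values, and in knockout-labelled mice 48.9% and 75.7%. With female mice alone, the medians were 0.78 in controls and 0.24 in knockout-labelled mice. Whether the difference itself depended on genotype was not tested across the tables. Leukocyte and plasma cell transcripts differed between the treatments in the same mice, as given above, and their part in the differences of the 8 genes was not tested. In such bulk samples, fewer cells of a type and less RNA per cell cannot be told apart.

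**Figure D2:**
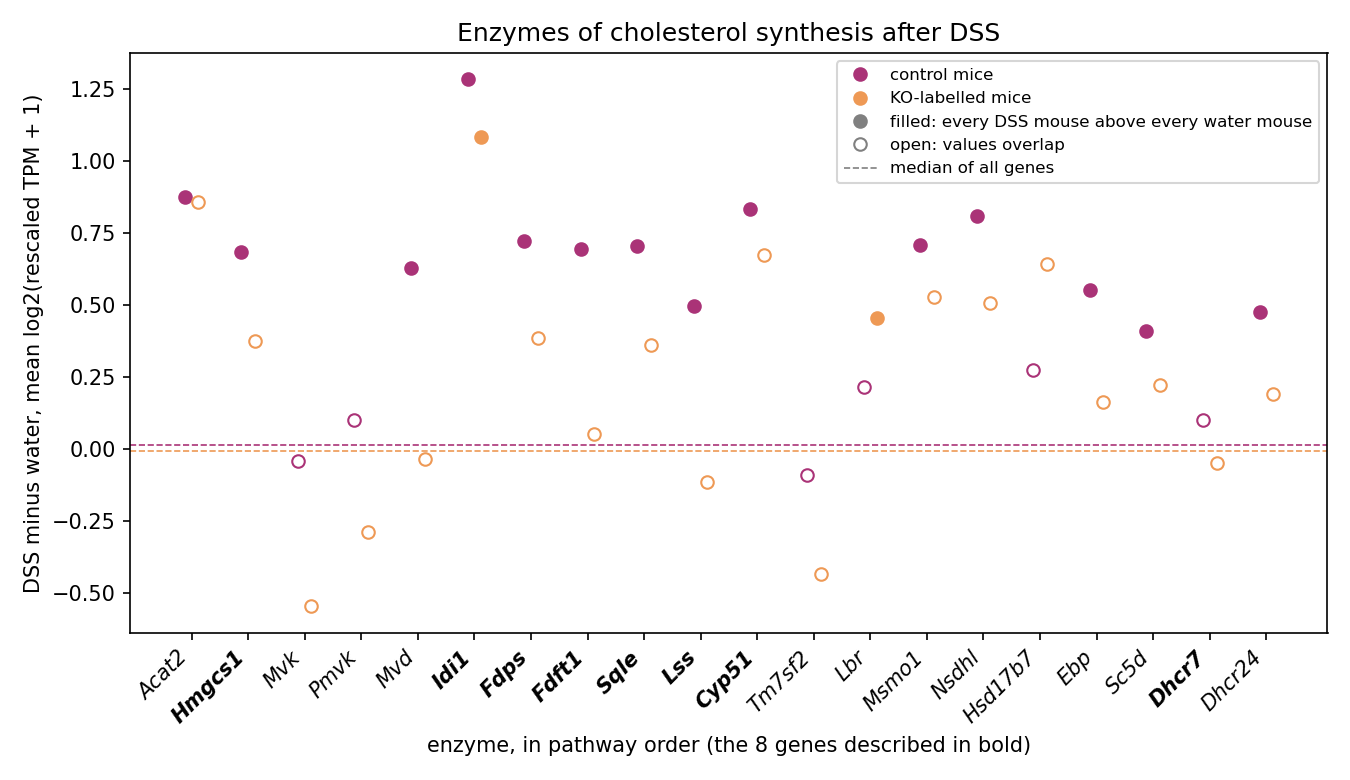
Difference between DSS-treated and water-treated mice in mean log2(rescaled TPM + 1) for 20 enzymes in pathway order, in control mice and knockout-labelled mice; filled points have every DSS-treated mouse above every water-treated mouse, and dashed lines are the medians of all genes. Of the 8 genes (bold), 7 are filled in controls and 1 in knockout-labelled mice, and *Idi1* has the highest points of both genotypes.

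The other enzymes of the pathway were described from a list of 12. In controls, 7 of the 12 had every DSS-treated mouse above every water-treated mouse and 0 the reverse, with a median difference of 0.44. Of all genes, 10.6% lay higher and 14.2% lower in this way. In knockout-labelled mice 1 of the 12, *Lbr*, was higher in this way and 0 lower, with a median of 0.21. The shares of all genes were 17.4% and 18.1% there. Without replicate 3 on water the count was 7 of 12 and the median 0.32, where 19.1% of all genes lay higher. *Lbr*, which encodes the lamin B receptor with sterol reductase activity, is named here after its values were seen. *Sc5d* and *Msmo1*, late enzymes that act on the sterol ring, differed by 0.41 and 0.71 in controls and by 0.22 and 0.53 in knockout-labelled mice.

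The regulators of the pathway were described next. Among 6 measured genes of sterol sensing and SREBP processing, 1 (*Insig1*) was higher without overlap in controls and 0 in knockout-labelled mice, with median differences of 0.06 and -0.14. Of all genes, 10.6% and 17.4% were higher in this way in the 2 genotypes. *Srebf1*, which encodes SREBP1 and is named here after its values were seen, differed by 0.75 in controls, with overlap, and by -0.13 in knockout-labelled mice, the latter with a sign that changed with the scaling. *Srebf2*, which encodes SREBP2, was at 32.5 ± 4.39 TPM (SD, n = 4) in controls and 40.2 ± 2.07 TPM (SD, n = 5) in knockout-labelled mice on water. After DSS it was at 42.3 ± 12.7 TPM (SD, n = 3) and 39.6 ± 7.66 TPM (SD, n = 4). Its rescaled difference between treatments was near 0 in controls and -0.39 in knockout-labelled mice, and changed sign with the scaling in both. *Insig1*, an SREBP target that retains SREBP2 in the endoplasmic reticulum, differed by 0.29 in controls and 0.06 in knockout-labelled mice. In the latter it was at 0.22 without replicate 3 on water and at -0.18 with females alone.

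Uptake, transport and efflux genes were described the same way, against the shares of all genes given above (10.6% higher and 14.2% lower without overlap in controls, 17.4% and 18.1% in knockout-labelled mice). Of 8 measured genes of uptake and intracellular transport, 2 were higher and 3 lower without overlap in controls, and 1 and 2 in knockout-labelled mice. *Stard4*, a soluble sterol carrier and SREBP2 target, was higher by 0.74 in controls and 0.99 in knockout-labelled mice. *Npc2* and *Lipa*, which move and release cholesterol in lysosomes, were lower by 1.40 and 1.39 in controls. Of 6 measured genes of efflux and LXR, 4 were lower in controls and 5 in knockout-labelled mice, and 1 and 3 with TPM as deposited. On the deposited values 8.25% and 10.1% of all genes lay lower without overlap. *Apoe*, the apolipoprotein that carries cholesterol from cells, was at 641 to 918 TPM in controls on water and 14.5 to 48.8 TPM after DSS, with differences of -4.95 and -4.93 in the 2 genotypes. *Abca1*, a cholesterol exporter, differed by -1.26 and -0.79, and *Nr1h2*, the LXR beta receptor, by -1.26 and -1.14. Among 4 measured genes of esterification and oxysterols, *Cyp27a1*, a mitochondrial sterol hydroxylase, alone had no overlap, with -1.36 and -2.04. Leukocyte markers moved with these genes, with 7 of 9 and 8 of 8 measured markers lower after DSS without overlap, and their part was not tested.

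Branches that share the isoprenoid and acetyl-CoA supply were read against the same shares of all genes, 10.6% and 17.4% higher. *Pdss1*, which makes the side chain of ubiquinone, was higher by 1.17 in controls and 1.46 in knockout-labelled mice. *Nus1*, a subunit of the dolichol-forming transferase, was higher by 0.85 and 1.15. In all, 2 and 3 of 7 measured genes of these branches were higher without overlap and 0 lower. Of 12 fatty acid synthesis genes, 5 and 4 were higher and 1 and 1 lower, and 6 were higher in knockout-labelled mice without replicate 3 on water. *Me1*, a source of NADPH, differed by 1.46 and 1.57, *Elovl6*, an elongase, by 1.28 and 1.51, and *Fasn*, the fatty acid synthase, by 0.71 and 0.75. The rescaled values of these 3 genes did not overlap between treatments in either genotype.

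**Figure D3:**
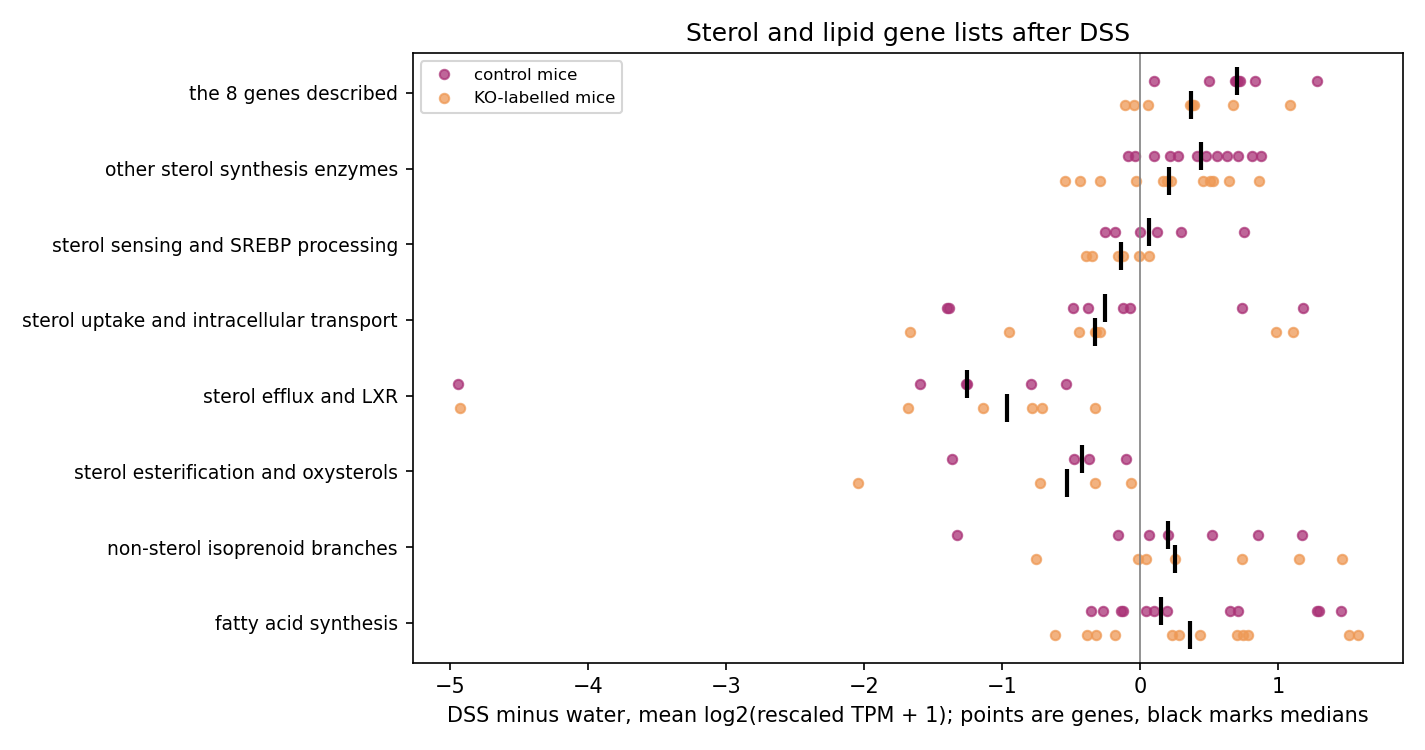
Difference between DSS-treated and water-treated mice in mean log2(rescaled TPM + 1) for the measured genes (points) of 8 sterol and lipid gene lists, in control and knockout-labelled mice, with the list medians (black marks). The 8 genes described have medians of 0.70 and 0.37, the efflux and LXR list has medians of -1.26 and -0.96, and its lowest point is *Apoe*.

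Whether epithelial loss of TNFR2 goes with a different level of these genes was tested within each treatment. After DSS, 0 of the 8 genes were called, and 1 of 10899 genes tested was (0.00918%, by limma with adjusted p under 0.05). At an unadjusted limma p under 0.05, 0 of the 8 passed, where 2.65% of all genes tested did. Differences, knockout-labelled minus control, ranged from -0.20 (SE 0.15) for *Fdft1* to 0.11 (SE 0.22) for *Idi1*, with a median of -0.065, and every limma adjusted p was 0.99968. The groups overlapped in all 8 genes. The 95% intervals bound the differences that these 7 mice allow: -0.47 to 0.21 for *Sqle*, -0.46 to 0.29 for *Hmgcs1* and -0.81 to 0.47 for *Lss*, the widest. With 3 and 4 mice the smallest exact permutation p is 0.0286, and the lowest of the 8, for *Fdft1*, was 0.200. None of the listed genes of the pathway, its regulators or its branches was called.

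On water, 0 of the 8 genes were called, where 1 of 11046 genes tested was (0.00905%, same test). All 8 were higher by mean in knockout-labelled mice, by 0.11 (*Cyp51*) to 0.43 (*Fdft1*), with a median of 0.25. Without knockout-labelled replicate 3 the median was 0.10, and *Cyp51* was at -0.082. *Fdft1* had the lowest p (0.0485 by limma, adjusted p = 0.865, SE 0.19, 95% interval 0.0034 to 0.86), and an exact two-sided permutation of the 9 mice gave p = 0.0714. Of all genes tested, 5.28% had an unadjusted limma p under 0.05. *Lss* differed by 0.43 (SE 0.24) and *Hmgcs1* by 0.21 (SE 0.22). The groups overlapped in all 8 genes. *Srebf2* was higher by 0.30 (SE 0.11, limma adjusted p = 0.865), without overlap between the 4 and 5 mice, and was not called. *Ebp*, of the 12 other sterol enzymes and named here after its values were seen, did not overlap either. It was at 6.31 to 10.7 TPM in controls and 10.9 to 18.7 TPM in knockout-labelled mice. How many of all genes separated by genotype in this way was not counted. Whether the genotype difference depended on treatment was not tested.

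Cage and sex coincided on water. Between the 4 males of one cage and the 5 females of the other, with genotype as a covariate, 0 of the 8 genes were called and 0.0362% of the same genes were (4 genes). Differences, male minus female, ranged from -0.27 (SE 0.20) for *Cyp51* to 0.04 (SE 0.19) for *Fdps*, with a median of -0.18. The median was -0.046 without knockout-labelled replicate 3, which is one of the females. With cage in the fit, the genotype difference on water had a median of 0.24.

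**Figure D4:**
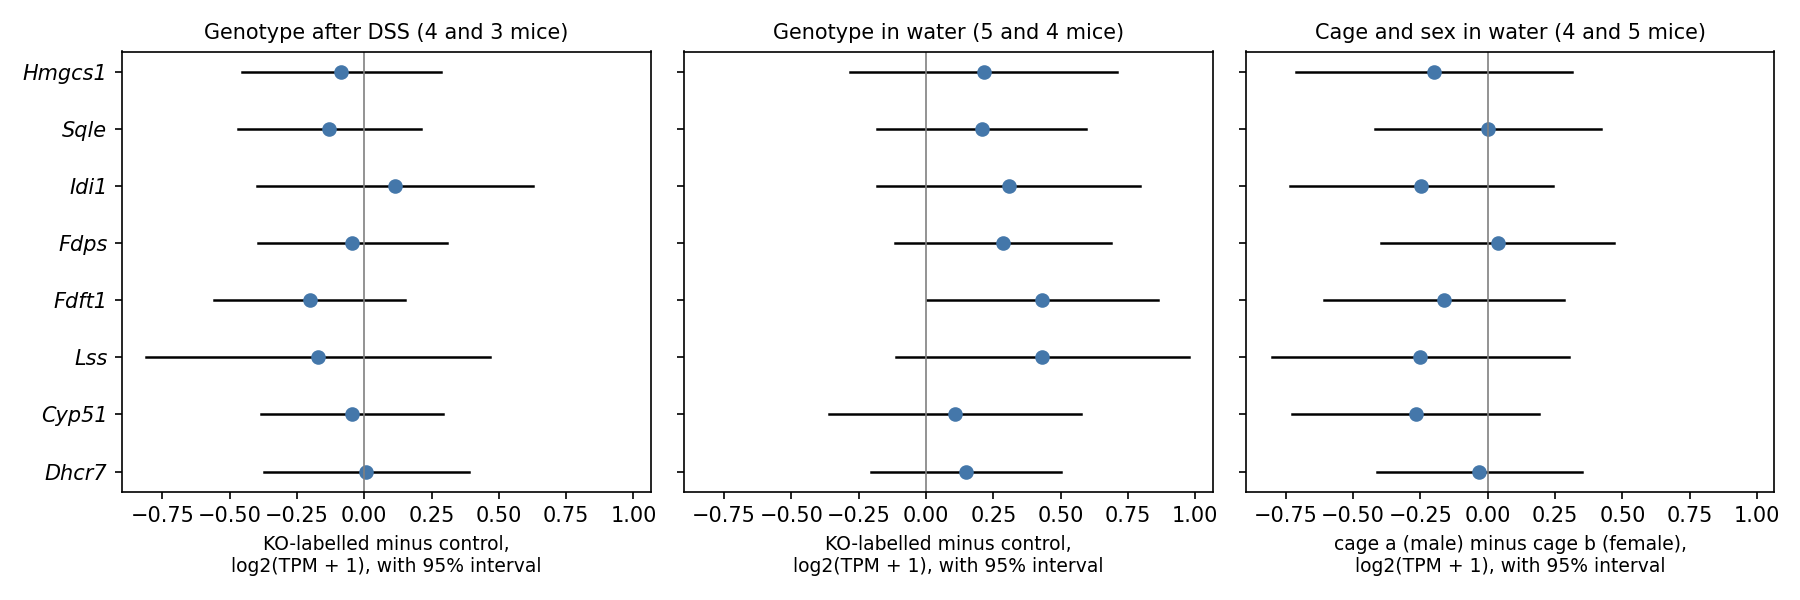
Differences in mean log2(TPM + 1) of the 8 genes with 95% intervals from limma, for genotype after DSS, genotype on water, and cage with sex on water, on one common axis. All intervals but that of *Fdft1* on water include 0, and after DSS and by cage the points lie on both sides of 0.

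The 8 genes varied together between mice of one group, less closely without 1 of the 16 mice. After the mean of its group was subtracted from each mouse, the correlation of each gene with the mean of the other 7 ranged from 0.51 (*Dhcr7*) to 0.90 (*Sqle*) over 16 mice, with a median of 0.74. For all 10151 genes compared the median correlation with the mean of the 8 was 0.01 and the 95th percentile 0.48. All 28 pairs of the 8 genes had a positive correlation, with a median of 0.56. *Idi1* and *Cyp51* had the highest (0.91) and *Idi1* and *Lss* the lowest (0.17). These values are descriptions, since the points share library, depth and rescaling factor. Replicate 3 among the knockout-labelled mice on water lay 0.57 above its group in the mean of the 8 genes, the farthest of any mouse. Its leukocyte marker sum was 1249 TPM, where the others of its group had 749 to 1489 TPM. Its epithelial marker sum, 6913 TPM, was the highest of its group, where the others had 5378 to 6790 TPM. The part of cell composition in its deviation was not tested. Without this mouse the median correlation was 0.46, 23 of 28 pairs were positive and the median pair was at 0.38. Within the 9 water-treated mice the median was 0.83, and it was 0.33 without replicate 3, a setting chosen after seeing the data. Within the 7 DSS-treated mice it was 0.66.

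**Figure D5:**
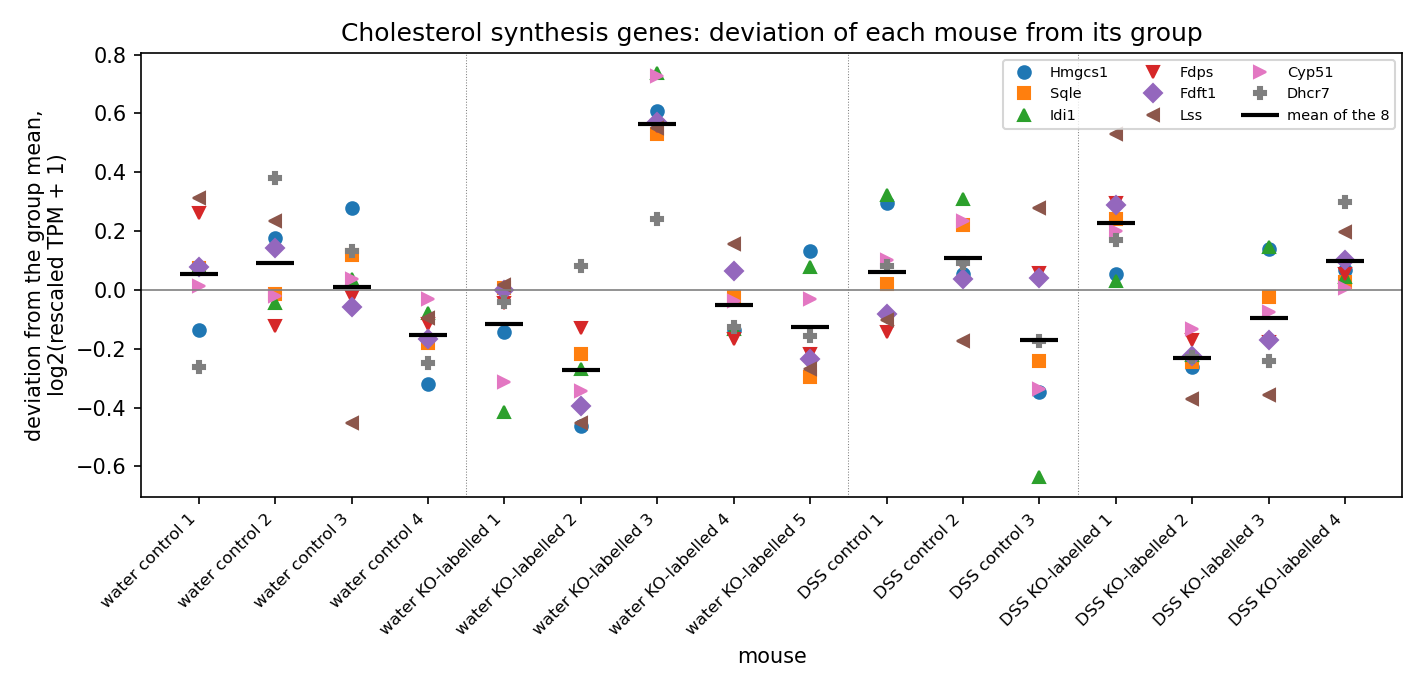
Deviation of each of the 16 mice from the mean of its group in log2(rescaled TPM + 1), with a symbol for each of the 8 genes and a black bar for their mean. All 8 symbols of knockout-labelled replicate 3 on water lie above 0, with a mean of 0.57.

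The 10 genes outside the 8 whose deviations were most like theirs were *Sc5d*, *Insig1*, *Scd2*, *Krt36*, *Cutc*, *Ppat*, *Fgfbp1*, *Taf5l*, *Slc39a1* and *Msmo1*, with correlations of 0.85 to 0.81 over 16 mice. *Sc5d* and *Msmo1* are enzymes of the same pathway, *Insig1* regulates it, and *Scd2* desaturates fatty acids. *Krt36* is a keratin, *Ppat* begins purine synthesis and *Slc39a1* is a zinc transporter. Of the 12 other sterol enzymes, 8 reached at least the lowest correlation of the 8, with a median of 0.60, and 3 of 12 fatty acid synthesis genes did so, with a median of 0.34. The efflux and LXR genes had a median of -0.25 and leukocyte markers one of 0.04. With knockout-labelled replicate 3 on water left out, the medians were 0.26 for the other sterol enzymes, of which 5 of 12 reached the lowest of the 8, 0.16 for fatty acid synthesis, -0.067 for efflux and LXR and -0.18 for leukocyte markers. Of all 10151 genes, 375 reached the lowest correlation of the 8 with all mice and 1631 without this mouse. Without knockout-labelled replicate 3 on water, 1 of the 10 genes, *Krt36*, was still among the 10 most alike, and the correlations of the 10 were then 0.54 to 0.77. Within the 9 water-treated mice, 3 of the 10 genes were among the 10 most alike. Within the 7 DSS-treated mice 0 were, and the correlations of the 10 there were 0.57 to 0.80.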

How the data were processed

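EpCAM+ cells of 16 mice were analysed. The authors prepared stranded polyA libraries with single reads of 75 bases and quantified them with kallisto and sleuth, and the submitters' processing notes name build mm10; versions are not given there. The 2 tables, 1 a treatment, were deposited with TPM per APPRIS principal transcript, scaled separately. The deposited natural log column (mean of log estimated counts over a table) served only for depth. The authors' p-values, q-values and log2 ratios of genotype were not used. Of 29373 lines a table, 385 repeats were dropped, leaving 28988 transcripts, all found in GENCODE M21 with versions ignored. TPM was summed by gene symbol, and library depth is not given by TPM (a mouse's TPM summed to 487469 to 861109).

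Genotypes were tested by limma 3.58.1 (R 4.3.3) on log2(TPM + 1) with variance trend, for genes averaging 1 TPM or more, with p-values adjusted after Benjamini and Hochberg (0.05), and by exact two-sided permutation. The smallest exact p was 0.0286 (3 and 4 mice) or 0.00794 (4 and 5). Across tables, TPM was rescaled by median-of-ratios (factors 0.905 to 0.940 on water, 1.13 to 1.24 after DSS) with no test. Likeness was Pearson's correlation of deviations from group means. Scripts were tested on simulated data. The genes named are the 8, called listed genes, *Srebf2*, *Insig1*, *Tnfrsf1b*, up to 3 a list with the largest difference without overlap in both genotypes, and the 10 most alike. The members and lists were chosen with earlier results of these data known. Some listed genes are not reported here and were left out of the lists. Tables and plots used pandas 2.3.3, numpy 2.4.6 and matplotlib 3.10.9 under Python 3.11.15. The closing section gives the alternatives tried.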

Additional observations from a re-analysis of the deposited data

Results flagged for a closer look

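Knockout-labelled replicate 3 on water was far from the other 4 mice of its group in 2 of the 8 genes, with the gap to the next mouse above Dixon's critical value for the group's range: *Fdps* at 129.8 TPM and *Cyp51* at 53.7 TPM. It was also far from them in the mean of the 8 genes, at 5.84 on the log2(rescaled TPM + 1) scale. Groups of 3 were not tested, 33 groups of values were, and chance flags about 1 in 20. The cause was not tested.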

How the results depend on the processing

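No gene of the 8 was called between genotypes or cages under any alternative run. The number of all genes called after DSS moved from 1 to 0 with a pseudocount of 0.1, with all genes above 0 and with the replicate block, and was 0 to 3 with 1 mouse left out. On water it moved from 1 to 0 with a pseudocount of 0.1, a mean of at least 5 TPM and the replicate block, to 4 with all genes above 0, and was 1 to 2 with 1 mouse left out. Between cages it was 3 to 7 with 1 mouse left out, 7 without knockout-labelled replicate 3. Replicate numbers did not pair the mice: same-numbered mice correlated from -0.20 to -0.025 after DSS and from -0.077 to 0.093 on water. With the block the medians of the 8 genes were -0.095 after DSS and 0.29 on water, and *Dhcr7* after DSS changed sign, to -0.088. Without genotype as a covariate, *Sqle* between cages was at -0.020. With 1 mouse left out, signs of small differences turned in *Hmgcs1* (-0.22 to 0.049), *Cyp51* (-0.18 to 0.046), *Idi1* (-0.17 to 0.26), *Fdps* (-0.15 to 0.023), *Lss* (-0.35 to 0.0046) and *Dhcr7* (-0.088 to 0.090) after DSS, in *Cyp51* on water (-0.082 to 0.20), and in *Sqle* (-0.075 to 0.14), *Fdps* (-0.058 to 0.19) and *Dhcr7* (-0.13 to 0.096) between cages.

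Between DSS and water, the median of the 8 genes in controls moved from 0.70 to 1.05 with TPM as deposited, 0.93 without immunoglobulin and mitochondrial genes and 1.04 with rescaling by epithelial markers. In knockout-labelled mice it moved from 0.37 to 0.73, 0.71 and 0.79, and the count of genes without overlap from 1 to 2, 3 and 4, where the share of all genes higher without overlap rose from 17.4% to 31.5%, 27.8% and 31.5%. With 1 mouse left out, the count was 7 to 7 in controls and 1 to 4 in knockout-labelled mice, and the medians 0.64 to 0.76 and 0.29 to 0.51. The median correlation of the 8 genes was 0.46 to 0.79 with 1 mouse left out, 0.46 without knockout-labelled replicate 3 on water, and 0.33 within the water-treated mice without it, a setting chosen after seeing the data. Precision is limited by 3 to 5 mice a group. *Lss* rests on few reads, and their part in its spread was not tested.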
